A study of Rattus norvegicus with 9 samples.

Results

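The 10 genes followed here were grouped as genes of mature B cells and of the antibody-secreting cells that arise from them. Not all are confined to these cells. They are the surface proteins Ms4a1, Cd22, Cr2 and Fcer2, the transcription factors Irf4, Prdm1 and Xbp1, and the plasma cell genes Jchain, Mzb1 and Tnfrsf17. They were chosen by name, with earlier results of these data known, so the shares over all genes given below are not an independent background for them. Each has a row among the 23026 genes of the count and FPKM tables. All 10 also passed the filter on low counts that kept 16874 genes for testing. RNA came from the femur of female Sprague–Dawley rats that were 8 weeks old when bought, with 3 libraries in each of 3 groups. Sham rats kept their ovaries and lost only fat next to the ovary, OVX rats were ovariectomized on both sides, and OVX-AS-IV-High rats were ovariectomized and given Astragaloside IV (AS-IV), a compound of Astragalus membranaceus, at 80 mg/kg (the treated group from here on). Gavage began 6 weeks after surgery and went on for 8 weeks in all groups, with the vehicle sodium carboxymethyl cellulose (CMC-Na) alone in Sham and OVX. The labels give CMC-Na at 1%, 2% and 3% for Sham replicates 1, 2 and 3 and at 1% for OVX, and the methods give 1% throughout, so the 3 Sham libraries may not share a vehicle. Surgery in young animals stands in for menopause here, and a whole piece of bone holds marrow, matrix and adhering tissue together.

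B cells form in the bone marrow, leave it as immature cells and mature in spleen and lymph nodes, and part of them recirculate through the marrow. On antigen they can turn into plasma cells, for which the marrow is a long-term niche. Ms4a1 (CD20) and Cd22, an inhibitory co-receptor of the B cell receptor, sit on B cells, while Cr2 (complement receptor CD21) and Fcer2 (the low-affinity IgE receptor CD23) appear late in maturation. Irf4 and Prdm1 (Blimp-1) drive the plasma cell programme, and Xbp1 expands the secretory machinery and is also used by many other secretory cells. Jchain links the chains of polymeric IgM and IgA, Mzb1 is a chaperone of antibody assembly, and Tnfrsf17 (BCMA) is a survival receptor of plasma cells.

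The promoters of 3 genes are printed because these are the genes, among the 5 whose OVX libraries all lay above the Sham libraries, that have an entry in the RefSeq promoter table of rat assembly GRCr8. Each runs from 250 bases before the transcription start to 50 bases after it, 5′ to 3′ on the gene's strand, which is the minus strand in all 3. Cd22 lies at chr1:95259681-95259980, Cr2 at chr13:109244457-109244756 and Irf4 at chr17:33948681-33948980. Capitals mark the 1 match to the motifs searched.
Cd22: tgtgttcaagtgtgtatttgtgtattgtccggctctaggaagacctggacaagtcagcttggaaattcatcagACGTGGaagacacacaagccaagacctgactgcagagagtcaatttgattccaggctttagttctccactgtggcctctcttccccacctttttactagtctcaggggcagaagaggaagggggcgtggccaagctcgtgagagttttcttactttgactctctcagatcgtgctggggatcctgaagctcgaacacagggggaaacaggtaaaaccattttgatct
Cr2: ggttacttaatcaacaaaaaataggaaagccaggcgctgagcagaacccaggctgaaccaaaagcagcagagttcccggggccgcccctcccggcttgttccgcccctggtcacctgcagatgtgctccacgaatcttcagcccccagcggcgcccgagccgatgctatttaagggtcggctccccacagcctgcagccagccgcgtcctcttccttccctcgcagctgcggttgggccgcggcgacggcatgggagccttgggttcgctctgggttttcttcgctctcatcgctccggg
Irf4: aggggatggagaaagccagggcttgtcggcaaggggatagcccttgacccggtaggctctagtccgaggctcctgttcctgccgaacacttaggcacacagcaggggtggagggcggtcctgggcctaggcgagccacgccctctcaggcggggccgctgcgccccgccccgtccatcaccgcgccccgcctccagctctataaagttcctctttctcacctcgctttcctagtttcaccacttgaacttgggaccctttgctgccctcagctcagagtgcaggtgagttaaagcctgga
The match in Cd22 is CCACGT on the other strand, at positions -177 to -172 from the start, and these letters, of the type bound by XBP1, occur in 7.84% of the 33469 promoters of the table. Cr2 and Irf4 hold none of the 4 motifs searched on both strands in this window. The other motifs were the octamer ATGCAAAT, found in 1.78% of promoters, the EBF-type CCCNNGGG, found in 12.4%, and the IRF-type letters GAAA, NN and GAAA in a row, found in 3.92%. Entries existed for 7 of the 10 genes. Among the other four of these, Xbp1 held the EBF-type letters at positions -123 to -116 and Tnfrsf17 the IRF-type letters at positions -101 to -92, and Jchain and Prdm1 held none. The table has no entry for Ms4a1, Fcer2 and Mzb1.

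Total counts lay between 34874880 and 37298250 per library. B lineage markers were plain in every library, with deposited FPKM of 204.4 to 415.7 for Cd79a and 97.4 to 179.6 for Cd79b, the signalling chains of the B cell receptor. Sdc1 (CD138), a plasma cell marker that other cells also carry, lay between 9.61 and 20.2. Skeletal muscle genes differed widely between libraries of the same group. The 14 measured muscle genes summed to 12121, 8456 and 2103 CPM in Sham replicates 1 to 3, to 4503, 2578 and 2151 in OVX, and to 6335, 2802 and 754 in the treated group. Sham replicate 3 held the least muscle RNA of its group and also the highest Sham level of 7 of the 10 genes, and its part in each result is given beside it.

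The 10 genes spanned a wide range of levels. By deposited FPKM, which is scaled by gene length and depth, the mean level over the 9 libraries was 493.7 for Jchain, which ranked 143 among 18206 protein-coding genes. Xbp1 followed at 69.2, Mzb1 at 33.9 and Ms4a1 at 24.1. Jchain (310.3 to 616.4) stood above Xbp1 (63.8 to 75.5), and Xbp1 above Mzb1 (18.6 to 48.3), with no overlap of libraries, whereas the range of Mzb1 overlapped that of Ms4a1 (14.7 to 36.0). Below them came Irf4 at 7.27, Cd22 at 6.75 and Cr2 at 3.07. The ranges of Irf4 and Cd22 overlapped, and those of Cd22 and Cr2 did not. The lowest mean FPKM were 2.03 for Tnfrsf17, 1.31 for Prdm1 and 1.29 for Fcer2, 3 genes whose ranges overlapped each other. Xbp1 was the steadiest, with a highest library 1.18 times its lowest, and Tnfrsf17 the least steady at 3.31 times.

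**Figure D1:**
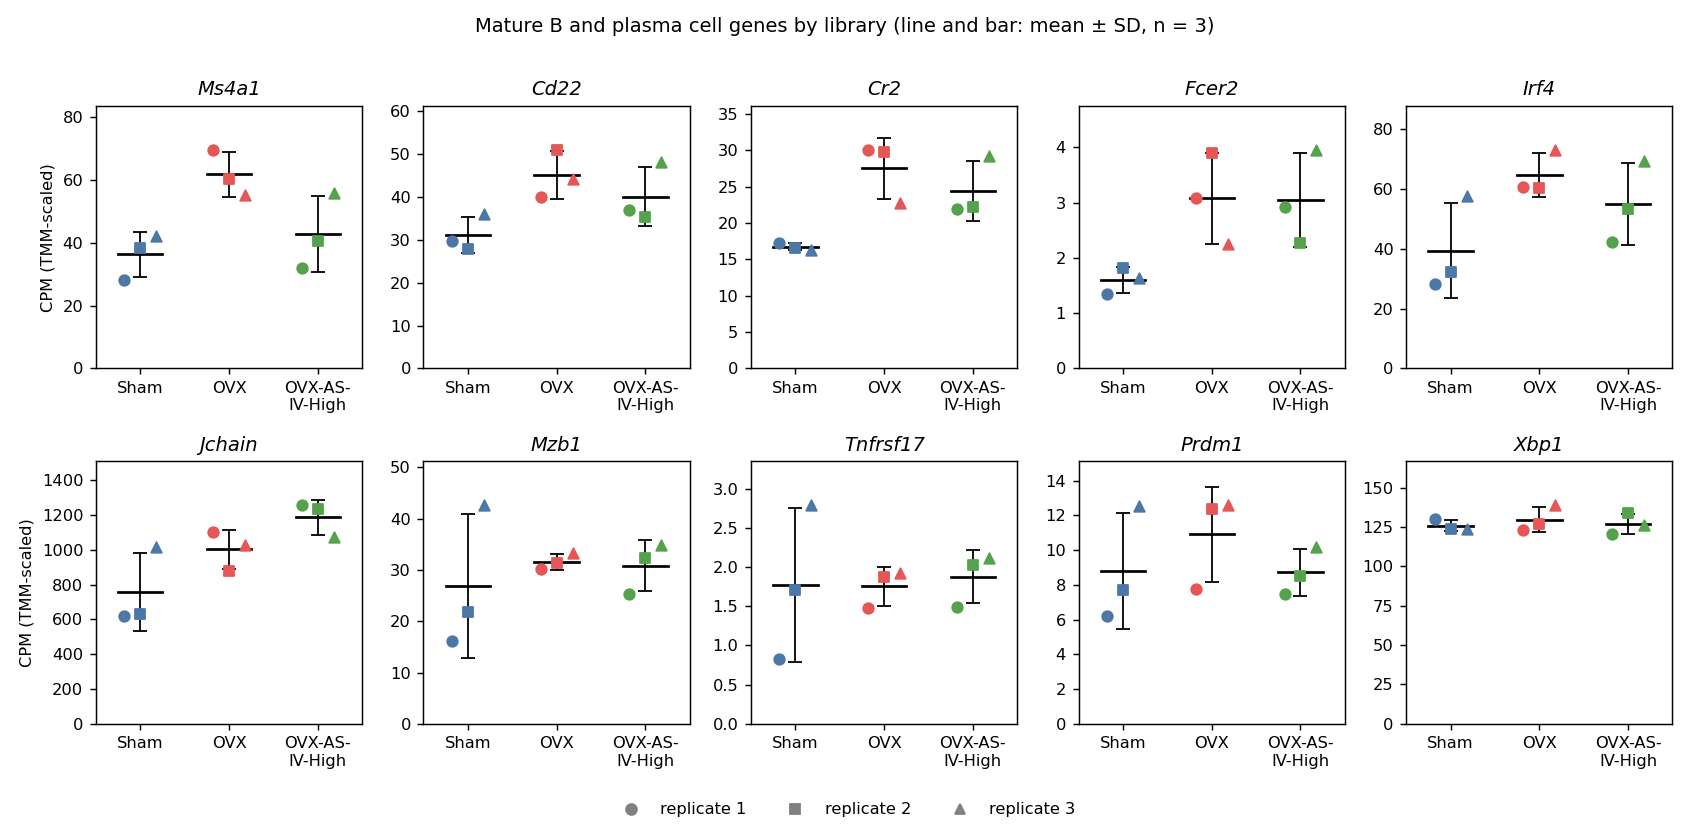
Levels of the 10 genes in CPM after TMM scaling (y axis of each panel, starting at 0) for each group, OVX-AS-IV-High being the treated one, with 1 point per library, shaped by replicate number, and the mean ± SD of 3 libraries. The OVX points of Ms4a1, Cd22, Cr2, Fcer2 and Irf4 all lie above the Sham points, and Sham replicate 3 lies far above the other Sham libraries in Mzb1, Tnfrsf17, Prdm1, Irf4 and Jchain.

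The first question was what ovariectomy did to these genes. The surface genes were higher in OVX than in Sham bone by 1.45-fold to 1.92-fold, and Irf4 by 1.64-fold, while Xbp1 and Tnfrsf17 were near equal. In whole bone, more cells of a type and more of its RNA per cell cannot be told apart. Of the 10 genes, 4 (Ms4a1, Cr2, Fcer2 and Irf4) had an unadjusted p under 0.05 and a log2FC over 0.58, the thresholds of the study's methods, against 2.86% of all genes tested that were higher by this rule. The unadjusted p was under 0.05 for 5 genes, those 4 and Cd22, against 16.4% of genes in either direction. None of the 10 had an absolute log2FC over 1 at that p (3.11% of genes did). In edgeR's quasi-likelihood test 0 of the 10 had a Benjamini-Hochberg adjusted p under 0.05, as had 0% of all 16874 genes, so the differences below rest on unadjusted p-values. DESeq2 gave an adjusted p under 0.05 to 3 genes, Ms4a1, Cd22 and Cr2, and to 4.85% of the 16303 genes for which it gave an adjusted p. In 5 genes every OVX library lay above every Sham library (12.7% of genes did so).

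Ms4a1 was counted 1029, 1304 and 1499 times in Sham, 2554, 2283 and 2040 times in OVX, and 1163, 1496 and 2037 times in the treated group. In CPM, the counts per 1000000 after TMM scaling of the library totals, its level was 36.3 ± 7.19 CPM in Sham, 61.7 ± 7.25 in OVX and 42.8 ± 12.2 in the treated group (SD, n = 3 each, as for all CPM below). The OVX libraries lay apart from Sham, and the treated libraries spread from the Sham range up to the OVX range. OVX stood above Sham by a log2FC of 0.77 (SE 0.21, unadjusted p = 0.00547, edgeR adjusted p = 0.165).

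Cd22 was counted 1079, 950 and 1277 times in Sham, 1473, 1936 and 1629 times in OVX, and 1345, 1303 and 1750 times in the treated group. Its level was 31.2 ± 4.26, 45.1 ± 5.52 and 40.1 ± 6.95 CPM in the same order. OVX lay wholly above Sham, and the treated group overlapped both. The difference between OVX and Sham, a log2FC of 0.53 (SE 0.15, unadjusted p = 0.00645, edgeR adjusted p = 0.167), stayed under the fold threshold.

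Cr2 was counted 627, 566 and 580 times in Sham, 1103, 1127 and 837 times in OVX, and 798, 817 and 1060 times in the treated group. Its level of 16.7 ± 0.455 CPM in Sham had the smallest relative spread of any surface gene, against 27.5 ± 4.15 in OVX and 24.4 ± 4.09 in the treated group. Both ovariectomized groups lay wholly above Sham and overlapped each other. The OVX value exceeded Sham by a log2FC of 0.72 (SE 0.15, unadjusted p = 0.000874, edgeR adjusted p = 0.138), the smallest p of the 10 genes.

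Fcer2 was scarce, with Sham counts of 49, 62 and 58, OVX counts of 113, 148 and 83, and treated counts of 106, 84 and 144. This gave 1.60 ± 0.238, 3.08 ± 0.826 and 3.05 ± 0.849 CPM. As with Cr2, both ovariectomized groups lay wholly above Sham. Its log2FC in OVX vs. Sham was 0.94 (SE 0.30, unadjusted p = 0.0122, edgeR adjusted p = 0.199), the largest of the 10.

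Among the transcription factors, Irf4 was counted 1028, 1104 and 2050 times in Sham, 2233, 2286 and 2699 times in OVX, and 1536, 1977 and 2528 times in the treated group. Its level was 39.5 ± 16.0 CPM in Sham, 64.8 ± 7.31 in OVX and 55.1 ± 13.7 in the treated group. Sham replicate 3 stood just under the lowest OVX library, at 57.8 against 60.3 CPM, and the treated libraries overlapped both groups. In OVX vs. Sham the log2FC was 0.72 (SE 0.27, unadjusted p = 0.0254, edgeR adjusted p = 0.242).

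Prdm1, with Sham counts of 225, 262 and 446, OVX counts of 284, 469 and 464 and treated counts of 271, 314 and 370, overlapped in all groups. Its log2FC was 0.31 (SE 0.29) in OVX vs. Sham. Xbp1 was counted 4724, 4221 and 4396 times in Sham, 4527, 4804 and 5118 times in OVX, and 4383, 4940 and 4600 times in the treated group. All groups of Xbp1 overlapped, and its level of 126 ± 3.44, 130 ± 8.14 and 127 ± 6.56 CPM gave a log2FC of 0.043 (SE 0.084, edgeR adjusted p = 0.812) in OVX vs. Sham, the smallest SE of the 10 genes.

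Of the plasma cell genes Jchain, Mzb1 and Tnfrsf17, none passed the thresholds in OVX vs. Sham, and their Sham libraries were spread widely. Jchain was counted 22613, 21501 and 36040 times in Sham, 40440, 33336 and 37794 times in OVX, and 45663, 45533 and 39071 times in the treated group. Its level was 756 ± 225, 1002 ± 113 and 1188 ± 99.6 CPM. Sham replicate 3 reached into the OVX range, and the treated libraries lay wholly above Sham. The log2FC in OVX vs. Sham was 0.41 (SE 0.19, unadjusted p = 0.0626, edgeR adjusted p = 0.325).

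Mzb1 was counted 585, 744 and 1513 times in Sham, 1110, 1185 and 1225 times in OVX, and 918, 1194 and 1267 times in the treated group. Sham replicate 3 held the highest level of the 9 libraries and Sham replicate 1 the lowest, so that the Sham SD was 13.97 CPM around a mean of 26.8, against 31.6 ± 1.52 in OVX. Tnfrsf17, with Sham counts of 30, 58 and 99, OVX counts of 54, 71 and 71 and treated counts of 54, 75 and 77, had the same pattern in Sham at a far lower level. For neither gene did the difference exceed its SE, with a log2FC in OVX vs. Sham of 0.23 (SE 0.30) for Mzb1 and -0.012 (SE 0.41) for Tnfrsf17.

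The Sham library with the highest plasma cell levels decided part of these counts. Without Sham replicate 3, 8 of the 10 genes passed the thresholds in OVX vs. Sham (Ms4a1, Cd22, Cr2, Fcer2, Irf4, Jchain, Mzb1 and Prdm1), while the share of all genes that were higher by this rule also rose, to 4.82%. The log2FC of Irf4 was then 1.10, that of Jchain 0.68 and that of Mzb1 0.74. Ms4a1 and Cr2 passed in 9 of 9 fits that each left out a library, Fcer2 in 8 and Irf4 in 6. Irf4 was lost without Sham replicate 1, Sham replicate 2 or OVX replicate 3, and Fcer2 without OVX replicate 2. With the summed muscle level as a covariate, an alternative added after the data were seen, 3 genes passed, Ms4a1, Cr2 and Fcer2 (2.28% of all genes were then higher). The part of muscle content in these differences was not tested further.

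**Figure D2:**
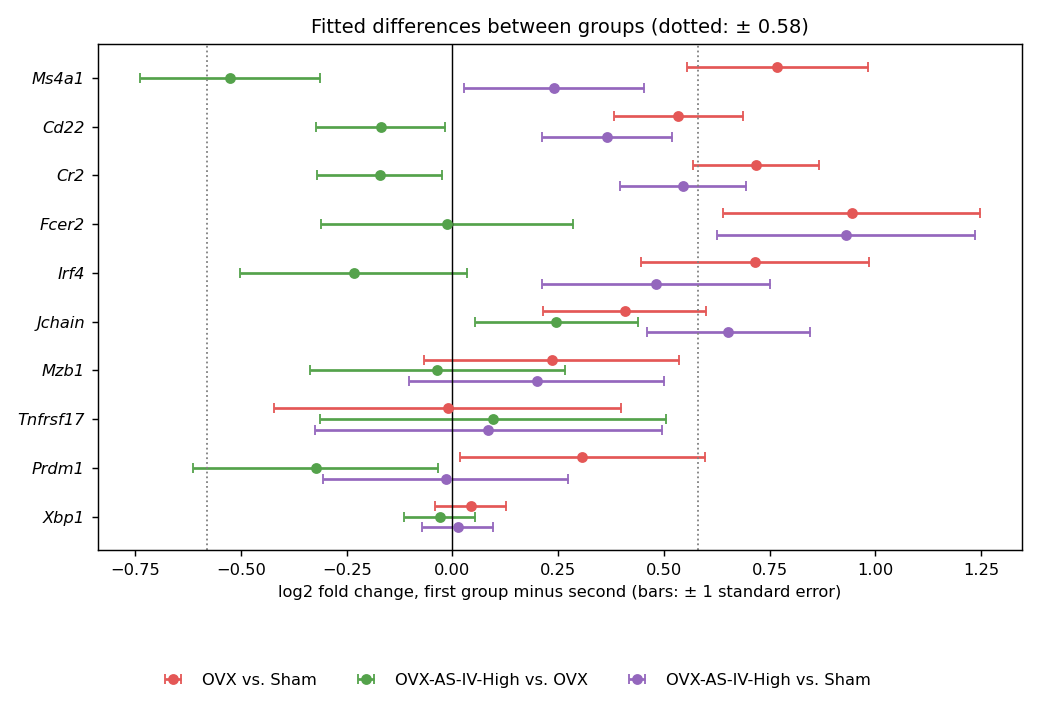
Fitted log2 fold change of each gene in the 3 comparisons (x axis, first group minus second), with bars of ± 1 SE from edgeR and dotted lines at ± 0.58. In OVX vs. Sham the points of Ms4a1, Cr2, Fcer2 and Irf4 lie to the right of 0.58, and in treated vs. OVX rats the points of all 10 genes lie between the dotted lines.

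The second question was what AS-IV did in ovariectomized rats. Ms4a1 was lower by a log2FC of -0.53 (SE 0.21, unadjusted p = 0.0343, edgeR adjusted p = 0.737) in the treated group than in OVX, a ratio of 0.694. It was the only one of the 10 genes with an unadjusted p under 0.05, which 6.45% of all genes had. Its value fell short of the fold threshold, so that 0 of 10 genes passed both thresholds (2.19% of all genes did). The count was also 0 for an absolute log2FC over 1 (0.83% of genes), for an edgeR adjusted p under 0.05 (0% of genes) and for groups that do not overlap (12.7%). It was 0 as well for a DESeq2 adjusted p under 0.05 (0.18% of the 14970 genes for which DESeq2 gave an adjusted p). Treated replicate 3, at 56.0 CPM of Ms4a1 against 32.0 and 40.5 in the other treated libraries, lay within the OVX range and also had the least muscle RNA of the 9 libraries. Without it the log2FC of Ms4a1 was -0.77 and passed both thresholds, as it did without OVX replicate 3.

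The other surface genes had a log2FC in treated vs. OVX rats of -0.17 (SE 0.15) for Cd22, -0.17 (SE 0.15) for Cr2 and -0.014 (SE 0.30) for Fcer2. The log2FC was -0.23 (SE 0.27) for Irf4, -0.32 (SE 0.29) for Prdm1 and -0.030 (SE 0.084) for Xbp1. None of these exceeded the spread between libraries. Jchain was the plasma cell gene with the largest value, a log2FC of 0.25 (SE 0.19, edgeR adjusted p = 0.922), opposite in sign to Ms4a1, and Mzb1 (-0.036, SE 0.30) and Tnfrsf17 (0.096, SE 0.41) lay near 0. Libraries of equal replicate number correlated weakly in their deviations in these groups (r of 0.310, 0.158 and 0.130). An unlike-numbered pair, treated replicate 3 and OVX replicate 2, reached 0.178, and the paper states random grouping and no pairing. With the replicate block the log2FC of Ms4a1 was -0.55 (unadjusted p = 0.0395, edgeR adjusted p = 0.629).

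The third comparison set the treated rats against Sham. Fcer2 and Jchain passed both thresholds, 2 of the 10 genes, against 3.07% of genes that were higher by this rule. Jchain was 1.57-fold higher, a log2FC of 0.65 (SE 0.19, unadjusted p = 0.00774, edgeR adjusted p = 0.150), and Fcer2 1.91-fold higher, a log2FC of 0.93 (SE 0.30, unadjusted p = 0.0132, edgeR adjusted p = 0.176). Cr2 was 1.46-fold higher, at a log2FC of 0.55 (SE 0.15, unadjusted p = 0.00495, edgeR adjusted p = 0.133), just under the fold threshold. With Cd22 (log2FC 0.36, SE 0.15, unadjusted p = 0.0399, edgeR adjusted p = 0.264), 4 genes had an unadjusted p under 0.05 (17.6% of all genes did).

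In this comparison 0 of the 10 genes had an absolute log2FC over 1 at that p (3.15% of genes) and 0 an edgeR adjusted p under 0.05 (0%). DESeq2 gave an adjusted p under 0.05 to Cr2 and Jchain and to 6% of the 15858 genes for which it gave an adjusted p. All treated libraries lay above all Sham libraries in 3 genes, Cr2, Fcer2 and Jchain (9.61% of genes). Ms4a1, by contrast, had a log2FC of 0.24 (SE 0.21) and overlapped with Sham. Without Sham replicate 3 Jchain had a log2FC of 0.93, and 4 genes passed, with Mzb1 and Irf4 added (4.45% of all genes were then higher). Without treated replicate 1, 4 genes also passed, with Cr2 and Irf4 added (3.61% of all genes). A single gene passed without Sham replicate 1 or Sham replicate 2 (Fcer2 in both) and without treated replicate 3 (Jchain). The shares of all genes that were higher were then 3.22%, 2.37% and 3.54% in the same order. This comparison shares its Sham libraries with the first and its treated libraries with the second, and those share the OVX libraries, so the 3 sets of values are not independent.

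Ratios within a library, which do not depend on the scaling of that library, were used to set the secretory genes against the surface genes. The log2 ratio of the summed CPM of Jchain and Mzb1 to that of Ms4a1, Cd22, Cr2 and Fcer2 took values of 3.06, 2.95 and 3.46 for Sham, of 2.99, 2.65 and 3.09 for OVX, and of 3.77, 3.66 and 3.01 for the treated group. Jchain made up nearly all of the upper sum, so the ratio follows Jchain and says little about Mzb1. Even in Sham replicate 3, where Mzb1 was highest, Jchain held 1015 of 1058 CPM. Treated replicates 1 and 2 held the highest ratios of the 9 libraries, and treated replicate 3 fell among the OVX libraries. In two-sided exact permutation tests the difference of the treated group from OVX was 0.57 (p = 0.2, adjusted over 3 comparisons p = 0.45). That from Sham was 0.33 (exact p = 0.3, adjusted p = 0.45), and that of OVX from Sham was -0.25 (exact p = 0.5, adjusted p = 0.5). With 3 libraries against 3 this test cannot give a p below 0.1, and all 3 differences lay within overlapping groups.

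The surface genes were set beside the receptor chains Cd79a and Cd79b, which B cell precursors also make. The summed surface genes amounted to 76.5, 84.5 and 96.2 CPM for Sham replicates 1 to 3, to 142.9, 144.9 and 124.5 for OVX, and to 93.9, 100.2 and 137.2 for the treated libraries. The summed CPM of both chains came to 352.3, 358.0 and 480.3 in the Sham libraries, to 646.8, 664.7 and 643.1 after ovariectomy alone, and to 419.5, 473.9 and 626.3 with treatment. By these sums, treated replicates 1 and 2 stood at or near Sham levels, and treated replicate 3 close to OVX. This held for the summed surface genes and for the summed receptor chains alike. It did not hold for each surface gene, as Ms4a1 and Cd22 made up most of the surface sum. Cr2 and Fcer2 lay above all Sham libraries in every treated library.

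**Figure D3:**
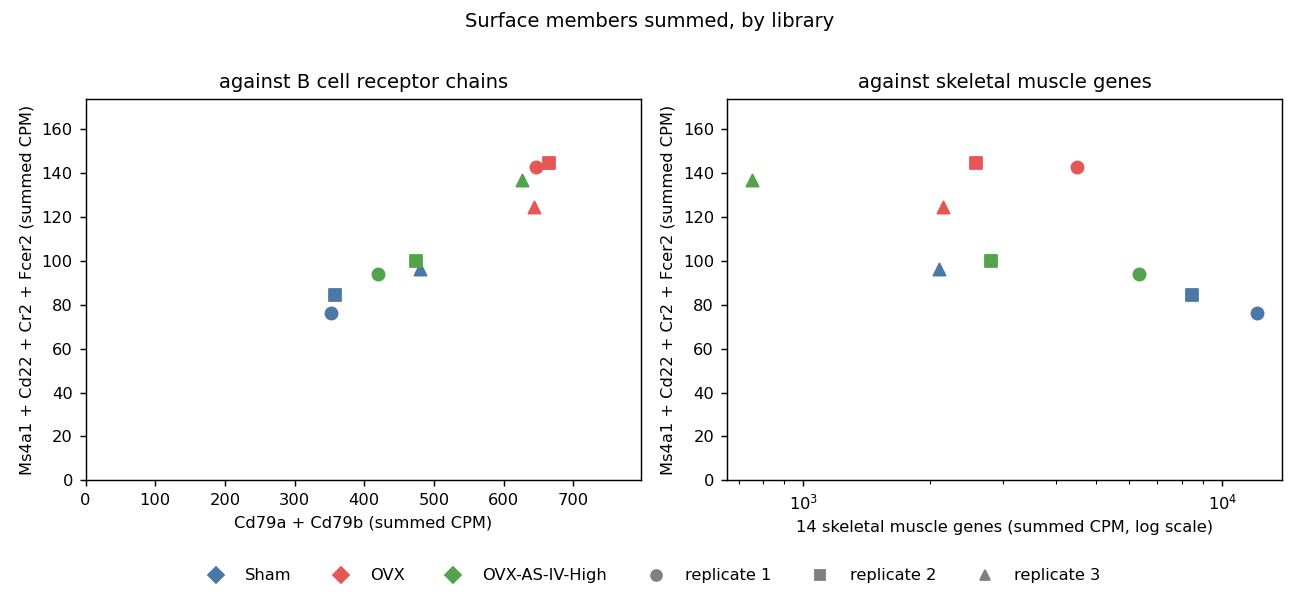
Summed CPM of the 4 surface genes in each of the 9 libraries (y axis, from 0) against the summed CPM of Cd79a and Cd79b (left) and of 14 skeletal muscle genes (right, log axis), coloured by group and shaped by replicate. On the left, libraries with higher sums of the chains also held higher sums of the surface genes in most cases. On the right, 1 Sham library, replicate 3 (2103 CPM of muscle genes, 96.2 of surface genes), lies near an OVX library in muscle level (replicate 3, 2151 and 124.5), and the other Sham libraries, at 8456 and 12121 CPM, lie above every OVX library.

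The rest of the pathway was described with lists of other genes, written with earlier results of these data known. For all lists, the shares of genes tested that were higher by the same rule were 2.86% in OVX vs. Sham and 3.07% in treated vs. Sham. In treated vs. OVX 2.19% passed in either direction. Of 29 other surface and receptor signalling genes of B cells, 11 passed both thresholds as higher in OVX vs. Sham and 0 as lower. Their median log2FC was 0.49, against -0.0062 over all genes, and 4 of the 29 had a log2FC below 0, including Cxcr5 (-0.86, SE 0.43). Among the 11 were Cd79b (log2FC 0.68, SE 0.15, edgeR adjusted p = 0.140), Cd79a (0.73, SE 0.18) and Tnfrsf13c (0.78, SE 0.20), the receptor of the survival factor BAFF. The count was 6 without Sham replicate 1, 7 without Sham replicate 2, 14 without Sham replicate 3 and 5 with the muscle level as a covariate. In treated vs. OVX the median was -0.27, and 1 of the 29 passed, the Fc receptor-like gene Fcrl5 (-1.09, SE 0.42), as lower. That count was 5 without OVX replicate 3, 2 without OVX replicate 2 or treated replicate 3 or with the muscle covariate, and 0 without treated replicate 2. Treated against Sham, the chemokine receptor Ccr7 was higher (1.47, SE 0.56) and the chemokine receptor Cxcr5 lower (-1.40, SE 0.44), each at under 4 CPM. Without Sham replicate 3, 6 of the 29 were higher in this comparison, and 2 or 3 without Sham replicate 2 or treated replicate 1 or 2.

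Of 15 B lineage transcription factors, 6 passed as higher in OVX vs. Sham and 0 as lower, with a median of 0.45. Bach2, which holds B cells back from the plasma cell state, was at 50.5 CPM in Sham and 104.2 in OVX (log2FC 1.05, SE 0.19, edgeR adjusted p = 0.123). Ikzf3 (Aiolos) had a log2FC of 0.90 (SE 0.18) and Pou2f2 (Oct-2) of 0.76 (SE 0.20). The count ranged from 5 to 7 over the fits without 1 library. In the treated rats 0 of the 15 passed against OVX, with a median of -0.23, and against Sham Bach2 (0.95, SE 0.19) and the Oct co-activator Pou2af1 (0.70, SE 0.24) passed as higher, a count of 2 that was 5 without Sham replicate 3, 4 without treated replicate 1 and 1 without Sham replicate 1, Sham replicate 2 or treated replicate 3.

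The plasma cell side was described in the same way. Of 12 other plasma cell and immunoglobulin genes in the table, 1 passed in OVX vs. Sham, Pigr (log2FC 1.23, SE 0.50, edgeR adjusted p = 0.267), the receptor with which epithelia transport polymeric antibody and no gene of plasma cells themselves. The median of this list was 0.19, and 0 of 12 passed in either other comparison, apart from at most 2 that were lower in the treated than in the OVX group when 1 library was left out. In OVX vs. Sham the count of higher genes was 3 without Sham replicate 3, 2 without OVX replicate 1 and 0 without any other library of these groups, and 1 gene passed as lower without Sham replicate 1, without OVX replicate 1 and with the muscle covariate. The smallest p of the list belonged to Tent5c, a poly(A) polymerase of plasma and other cells that was named after its values were seen. Its level was 431 ± 41.0 CPM in Sham and 291 ± 27.7 in OVX, all OVX libraries lying below Sham, and its log2FC of -0.56 (SE 0.12, unadjusted p = 0.00123, edgeR adjusted p = 0.140) stayed short of the fold threshold. Txndc5, with the next smallest p of the list, went the other way. Its log2FC in OVX vs. Sham was 0.47 (SE 0.13, unadjusted p = 0.00497, edgeR adjusted p = 0.162), all OVX libraries lying above Sham. In treated vs. OVX it was -0.38 (SE 0.13, unadjusted p = 0.0153, edgeR adjusted p = 0.652), all treated libraries lying below OVX. Both values stayed short of the fold threshold. Of the immunoglobulin constant region genes of the list, only Iglc1, the lambda light chain constant region, has a row under the symbol listed. Its log2FC in OVX vs. Sham was 0.75 (SE 0.35, unadjusted p = 0.0600, edgeR adjusted p = 0.322). The others, among them Ighm, Igha and Igkc, were not looked for under other symbols, so the main antibody transcripts were not analysed.

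Genes of the unfolded protein response, the programme that Xbp1 serves, had a median near 0, as had the log2FC of Xbp1 itself. Of 22 genes, 0 passed in OVX vs. Sham in edgeR, with a median of 0.045, and 0 in treated vs. Sham rats. In treated vs. OVX 1 passed, the chaperone Dnajb9 (ERdj4), as higher at 46.7 against 29.0 CPM (log2FC 0.69, SE 0.18, unadjusted p = 0.00383, edgeR adjusted p = 0.652), and 0 without treated replicate 2. Of 11 ligands and survival signals for these cells, among them the genes of BAFF and APRIL, 6 passed the filter on low counts and 0 of these passed the thresholds in any of the 3 comparisons, and at most 1 in each direction when a library was left out. All treated libraries lay above OVX in 1 of the 6, the APRIL gene Tnfsf13, and below OVX in 1, Il7. For Tnfsf13 the log2FC was 0.20 (SE 0.084, unadjusted p = 0.0364, edgeR adjusted p = 0.743). Against Sham, where its treated libraries also lay wholly above, it was 0.28 (SE 0.084, unadjusted p = 0.00785, edgeR adjusted p = 0.150).

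Across the 9 libraries the 10 genes fell into loosely joined sets, described here by Pearson's r of log2 CPM over points that share 3 groups. Cr2 and Fcer2 went together at an r of 0.92, Cd22 and Cr2 at 0.84, and Ms4a1 and Irf4 at 0.82. Mzb1 went with Tnfrsf17 at 0.92, with Irf4 at 0.88 and with Prdm1 at 0.82. Irf4 was thus close to members of both sets. Xbp1 tracked none of the others (-0.19 to 0.28), and Jchain was only loosely tied to Ms4a1 (0.35).

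**Figure D4:**
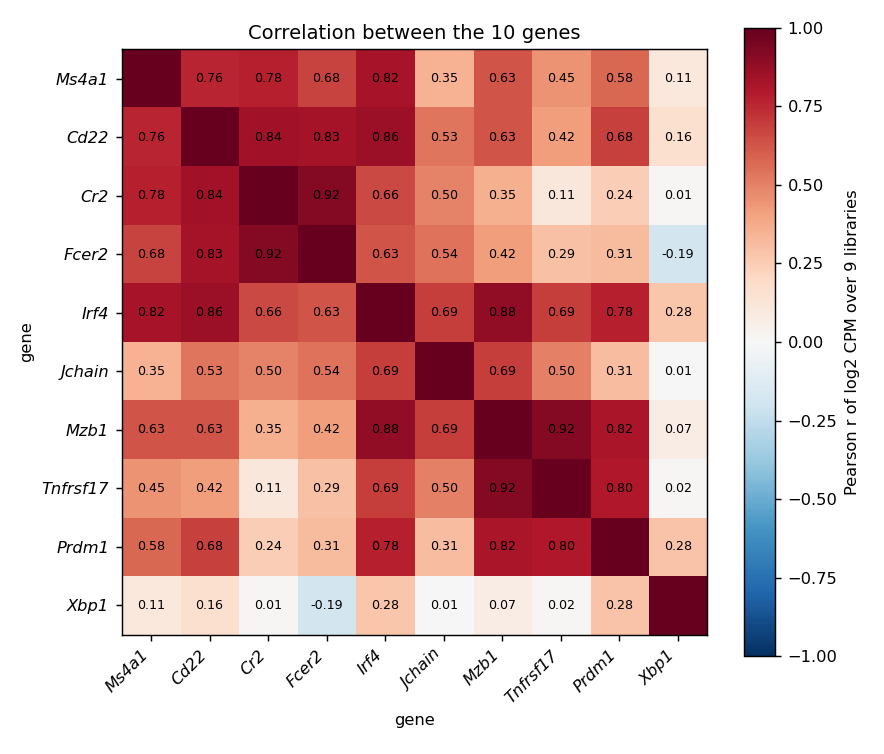
Pearson's r of log2 CPM over 9 libraries for each pair of the 10 genes (both axes), from blue at -1 to red at 1. The surface genes form a block with Irf4 at 0.63 to 0.92, Mzb1, Tnfrsf17 and Prdm1 form another at 0.80 to 0.92, and the row of Xbp1 is pale.

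The genes most alike to Ms4a1 over the 9 libraries, by r among all genes tested, were LOC687679 (0.973), Snx12, Cops3, Txndc5 and Arpc5l (0.960). Those most alike to Jchain were Smc2 (0.969), Rev3l, Suz12, Atg12 and Ncapg (0.957). The sets share no gene, and among the 10 genes themselves the closest to Ms4a1 was Irf4, at rank 568, and the closest to Jchain Irf4 as well, at rank 1206.

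Markers of other cells moved with some of these comparisons. In OVX vs. Sham 5 of 11 B cell precursor genes passed as higher (8 without Sham replicate 3, 2 without OVX replicate 3 and 1 without Sham replicate 1 or Sham replicate 2), with a median of 0.62, including Bst1 (0.72, SE 0.16), Sox4 (0.62, SE 0.21) and the surrogate light chain gene Igll1 (1.15, SE 0.43). Of 16 T and NK cell genes 3 passed (Cd5, Lck and Cd8a, 8 without OVX replicate 1 or OVX replicate 3, and 1 without Sham replicate 2 or OVX replicate 2), with a median of 0.74 that was 0.048 without OVX replicate 2, and of 8 adipocyte genes 6, with a median of 1.23. The 14 skeletal muscle genes had a median of -1.08, and 0 of them passed, though 4 did as lower without Sham replicate 3 and 3 without treated replicate 3. Of the remaining lists, 1 of 7 plasmacytoid dendritic cell genes tested (Siglech), 1 of 10 osteoblast genes (Bglap) and 1 of 9 neutrophil genes (Elane) passed as higher, and 0 of 3 follicular dendritic cell, 10 osteoclast, 10 erythroid and 8 cell cycle genes passed in edgeR. Without Sham replicate 3 the counts of higher genes were 5 for osteoblasts, 2 for osteoclasts and 1 each for erythroid and cell cycle genes, and without Sham replicate 1 the count of lower erythroid genes was 2. An osteoblast gene was lower without OVX replicate 3. The plasmacytoid count fell to 0 without Sham replicate 2 or OVX replicate 3, and the neutrophil count, which was 2 without treated replicate 1, fell to 0 without OVX replicate 2 or OVX replicate 3 and with the muscle covariate, which gave 1 higher osteoclast gene.

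The precursor genes summed to 519.9 to 783.0 CPM in Sham, 834.9 to 937.3 in OVX and 825.7 to 994.0 in the treated group, whose libraries all lay above Sham. The T and NK cell genes summed to 224.2 to 281.8, 259.3 to 391.3 and 270.1 to 323.7 CPM, and the adipocyte genes to 502.6 to 694.4, 753.1 to 999.8 and 750.6 to 1011. No gene of these lists lay at 3 counts or fewer in all libraries of a group. In treated vs. Sham rats 3 of the 11 precursor genes (Sox4, Rag1 and Rag2) and 6 of the 8 adipocyte genes passed as higher, and the precursor count was 8 without Sham replicate 3, 6 without treated replicate 1 and 1 without any other library of these groups. The part of these cells in the levels of the 10 genes was not tested.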

How the data were processed

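Rat femur RNA was sequenced after poly(A) selection, and the labels describe dUTP (strand-specific) libraries. The authors filtered the reads, aligned them (Tophat, Bowtie2) and obtained gene estimates from eXpress (build mRatBN7.2, per the submitters' processing notes). Whether strand was used in counting is not given in the sources used here. Deposited by the authors were raw counts for each gene, in whole numbers, and FPKM values scaled by gene length and depth. Nothing states how the estimates became whole numbers.

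Counts were tested with edgeR 4.0.16 in R 4.3.3 (quasi-likelihood test, TMM, minimum count of 10, all 9 libraries in a single fit, common biological coefficient of variation 0.256), and p-values were adjusted by Benjamini-Hochberg over 16874 genes. SE was the log2FC over the root of F. The thresholds were an unadjusted p under 0.05 with an absolute log2FC over 0.58. The test was checked on simulated data. Alternatives were DESeq2 1.42.0, RLE size factors, library totals, TMM without muscle genes, no filter, only the groups compared, limma 3.58.1 on log2(FPKM + 1) and log2(FPKM + 0.1), a replicate block, each library left out and, added later, a muscle covariate. Total counts per library were 34874880 to 37298250. Ratios used Python 3.11.15 and scipy 1.17.1.

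The 10 genes and the lists were chosen with earlier results of these data known. Named from each list were genes past the thresholds, at most 3 with the smallest p per list and comparison, and the 5 genes most alike to Ms4a1 and to Jchain. 1 gene of the lists and a ratio that needs it are not reported here. Iglc1, Tent5c, Tnfsf13, Il7 and, within the plasma cell list, Txndc5 were named after their values were seen. Replicates are separate rats as far as the labels tell, so p-values measure the spread between these samples. Deviations of libraries with equal replicate numbers correlated at 0.310, 0.158 and 0.130 between OVX and OVX-AS-IV-High. An unlike-numbered pair of these groups reached 0.178. The values for equal numbers were 0.200, -0.161 and 0.253 for OVX and Sham and 0.314, -0.158 and 0.435 for OVX-AS-IV-High and Sham. The main fit paired no groups, and the replicate block was fitted only as an alternative.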

Additional observations from a re-analysis of the deposited data

How the results depend on the processing

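The number of the 10 genes past both thresholds was 4 in OVX vs. Sham, 0 in treated vs. OVX rats and 2 in treated vs. Sham rats, and the replicate block gave the same 4, 0 and 2 and changed no call among them. The exceptions were limma on log2(FPKM + 1), with 2 genes in OVX vs. Sham and 1 in treated vs. Sham rats, the muscle covariate, with 3 in OVX vs. Sham (Irf4 lost), and, in treated vs. OVX rats, limma on log2(FPKM + 0.1) and again the muscle covariate, each with 1 gene, Ms4a1. A pseudocount of 1 shrinks the fold of genes at low FPKM. Leaving out each library in turn gave 3 to 8 genes, 0 to 1 gene and 1 to 4 genes in the same order of comparisons. Over these fits, 2.1% to 4.82% of all genes were higher in OVX vs. Sham, and 2.29% to 4.45% in treated vs. Sham rats. In treated vs. OVX rats, between 312 of 17172 and 599 of 17171 genes passed in either direction. DESeq2 gave an adjusted p under 0.05 to 3, 0 and 2 genes where edgeR gave it to 0.

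No direction that turned belonged to a value past the thresholds. In OVX vs. Sham the log2FC of Tnfrsf17 was 0.020 with library totals, 0.076 and 0.16 with limma on log2(FPKM + 1) and log2(FPKM + 0.1) and 0.13 with the replicate block. In treated vs. Sham rats, the muscle covariate gave -0.034 for Ms4a1, -0.11 for Mzb1, -0.00049 for Xbp1 and -0.26 for Tnfrsf17, and Prdm1 was 0.0029 with only the groups compared, 0.0036 and 0.023 with limma in the same order and 0.052 with the block. The cause was not tested. Without 1 library, log2FC in OVX vs. Sham ranged from -0.035 to 0.74 for Mzb1, -0.0075 to 0.079 for Xbp1 and -0.36 to 0.48 for Tnfrsf17. In treated vs. OVX the ranges were -0.25 to 0.19 for Fcer2, -0.13 to 0.088 for Mzb1, -0.071 to 0.022 for Xbp1 and -0.017 to 0.24 for Tnfrsf17. In treated vs. Sham rats they were -0.058 to 0.70 for Mzb1, -0.026 to 0.048 for Xbp1, -0.21 to 0.33 for Prdm1 and -0.25 to 0.57 for Tnfrsf17. Fcer2 and Tnfrsf17 had the lowest counts of the 10, at 30 to 148 per library.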
